A study of Homo sapiens with 12 samples.

Results

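The RNA copied from the mitochondrial genome was compared across 4 lines of MIA PaCa-2, a human pancreatic carcinoma cell line, in bulk RNA sequencing. Its genes were chosen by symbol, as the rows of the expression table that start with MT-. The group itself was put forward with earlier results of these data known, so its p-values are no independent evidence that it stands apart. This gave 37 of the 63086 genes listed: 13 protein genes, 2 rRNA genes and 22 tRNA genes. The lines were unmodified MIA PaCa-2 (WT), a CRISPR Control line whose only recorded edit was a silent point mutation in TIMP1, and TIMP1 KO 1 and TIMP1 KO 2, made with Cas9 and guides against exon 4 of TIMP1. Each line was represented by 3 libraries labelled as biological replicates, all from cells grown in the same medium without treatment. Both TIMP1 KO lines were described by the study as clones, so an effect of the edit and a feature of the clone cannot be told apart. WT and CRISPR Control are called TIMP1-competent here, and the KO lines TIMP1-deficient.

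Values are normalised read counts, that is, reads per gene divided by a factor that brings the libraries to a common level. The libraries held 26908701 to 36093563 reads in genes. Transcripts of TIMP1, the secreted inhibitor of metalloproteinases that was targeted, averaged 3553 ± 274 in WT (SD, n = 3 here and for each line mean below), with 2690 ± 357 for CRISPR Control, 1600 ± 32.8 for TIMP1 KO 1 and 1161 ± 28.8 for TIMP1 KO 2. The keratins KRT8 and KRT18 were at 14596 or more in every library. Of the other carcinoma markers, KRT19 ran from 3792 to 59423, EPCAM from 1199 to 2226 and KRT7 only from 79.1 to 217. VIM and ZEB1, taken as markers of the mesenchymal state of the line, were at 51007 or more and 809 or more. By contrast INS was at 0 in all 12 libraries, and DCN, LUM, CD3E and CPA1 reached at most 5.26. Of the remaining markers checked for cell types foreign to the culture, CD14 ran from 31.8 to 173 and PDGFRB from 8.57 to 64.8. PECAM1 reached 17.2, VWF 16.2, PRSS1 10.2, PTPRC 7.46 and GCG 0.828.

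The human mitochondrial genome is a small circle whose strands are called heavy and light after their base content, and both are transcribed into long RNAs that span many genes. tRNAs lie between most of the mRNAs and rRNAs, and cutting the tRNAs out of the long RNA releases the pieces between them. The proteins encoded there are core subunits of complexes I, III and IV of the respiratory chain and of ATP synthase, and the rRNAs form the ribosome that translates them. Every protein of the transcription, processing and translation machinery is encoded in the nucleus. RNA levels of neighbouring genes can therefore differ through the strand, through processing and through decay.

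In the reference, 28 of the 37 genes lie on the plus strand (called heavy-strand genes here, after their common name) and 9 on the minus strand (light-strand genes). The light-strand genes are MT-ND6 and 8 tRNA genes. They are introduced first because the largest differences between the lines were found among them. MT-ND6 is the single protein gene of that strand and lies at chrM:14149-14673 of GRCh38. Of the 8 tRNA genes, only MT-TN, MT-TC, MT-TY and MT-TP had a mean of at least 10 normalised counts over the 12 libraries, the minimum set for a test. MT-TN, MT-TC and MT-TY lie together with MT-TA between MT-ND2 and MT-CO1, and MT-TP lies next to the control region. The sequences below are those of the annotated genes in GRCh38, read on the minus strand from 5′ to 3′, with the anticodon in capitals. MT-TA is shown as the neighbour of MT-TN that collected a single read in all 12 libraries.
MT-TN (tRNA for asparagine, chrM:5657-5729): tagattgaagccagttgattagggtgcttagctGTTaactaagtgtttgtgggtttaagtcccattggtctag
MT-TC (tRNA for cysteine, chrM:5761-5826): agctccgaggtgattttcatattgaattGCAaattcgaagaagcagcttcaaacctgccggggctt
MT-TY (tRNA for tyrosine, chrM:5826-5891): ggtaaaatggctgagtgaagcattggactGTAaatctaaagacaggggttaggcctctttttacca
MT-TP (tRNA for proline, chrM:15956-16023): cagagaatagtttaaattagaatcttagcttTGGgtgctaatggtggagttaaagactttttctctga
MT-TA (tRNA for alanine, chrM:5587-5655): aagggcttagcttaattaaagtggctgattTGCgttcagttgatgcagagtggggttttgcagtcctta

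Mitochondrial genes took a small part of all reads, lowest in CRISPR Control and highest in TIMP1 KO 2. The share of reads in genes was 0.671%, 0.675% and 0.712% in the WT libraries, and 0.542%, 0.570% and 0.583% in CRISPR Control. It was 0.770%, 0.937% and 0.898% in TIMP1 KO 1, and 1.14%, 1.16% and 0.872% in TIMP1 KO 2. Thus every CRISPR Control library lay under every WT library and every TIMP1-deficient library lay above them, whereas the ranges of the KO lines overlapped. The line means were 0.686 ± 0.0222%, 0.565 ± 0.0210%, 0.868 ± 0.0873% and 1.06 ± 0.159%. These shares sum over the genes under study and are given as a description without a test. A share of reads does not tell more mitochondrial RNA per cell from less of the other RNA, nor a rise in all cells from a rise in some of them.

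**Figure D1:**
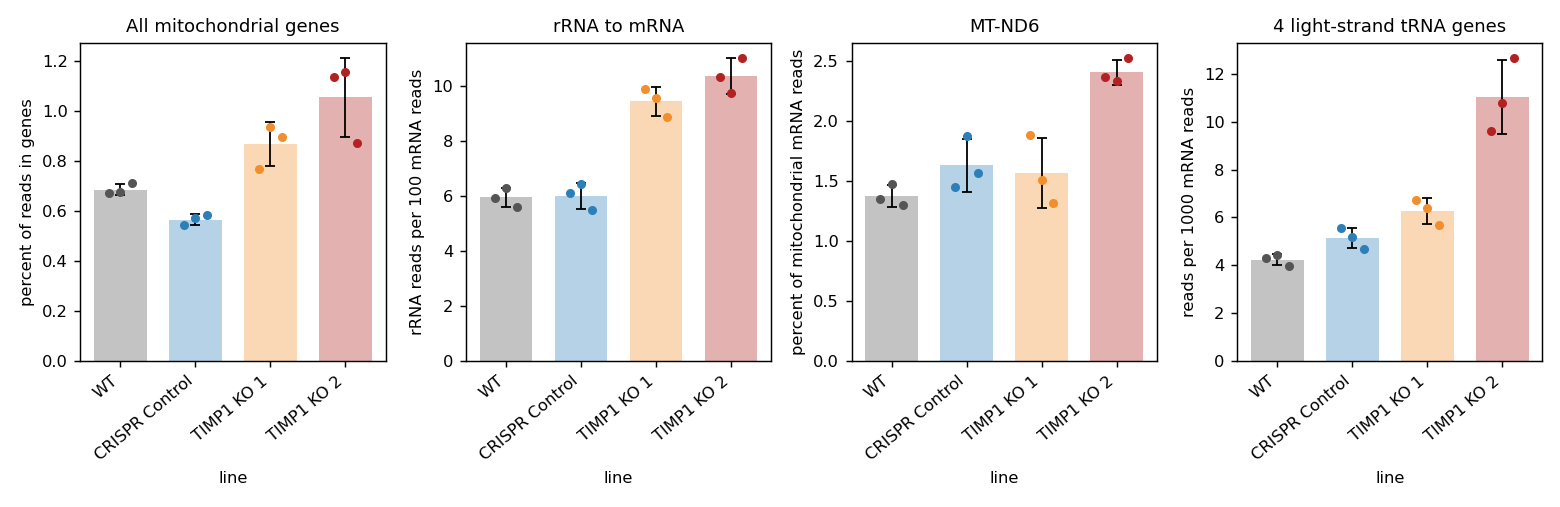
Points are libraries, bars are line means and error bars are SD (n = 3). The panels show, from left to right, mitochondrial genes as a percent of reads in genes, rRNA reads per 100 mitochondrial mRNA reads, MT-ND6 as a percent of mitochondrial mRNA reads, and reads of MT-TN, MT-TC, MT-TY and MT-TP per 1000 mitochondrial mRNA reads. In the second panel all 6 TIMP1-deficient libraries sit above all 6 TIMP1-competent ones, from 8.87 upwards against at most 6.42, which does not hold for MT-RNR1 alone, and in the last panel the TIMP1 KO 2 libraries start at 9.61.

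Both rRNAs were more abundant in the TIMP1-deficient lines than in WT. MT-RNR2 (chrM:1671-3229), the RNA of the large ribosomal subunit, was at 10552, 11275 and 10618 normalised counts in WT and at 8147, 9211 and 8311 in CRISPR Control. In TIMP1 KO 1 it was at 20075, 23536 and 20986, and in TIMP1 KO 2 at 27436, 26384 and 22440. No library of a deficient line reached down to a competent one. Against WT the log2 fold change was 0.99 ± 0.08 (SE) in TIMP1 KO 1 (adjusted p = 2.55e-08, limma with Benjamini-Hochberg adjustment over the 15987 genes tested, as for every adjusted p below) and 1.23 ± 0.08 in TIMP1 KO 2 (adjusted p = 5.34e-10). In CRISPR Control MT-RNR2 was lower than in WT, by -0.34 ± 0.08 (adjusted p = 0.00222).

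MT-RNR1 (chrM:648-1601), the RNA of the small subunit, was at 1424, 1110 and 1173 normalised counts in WT and at 1500, 1714 and 1573 in CRISPR Control. It was at 1802, 2230 and 1920 in TIMP1 KO 1 and at 3511, 3491 and 3008 in TIMP1 KO 2. The 4 lines thus formed 4 separate ranges, in the order WT, CRISPR Control, TIMP1 KO 1 and TIMP1 KO 2. Each step differed: the log2 fold change against WT was 0.37 ± 0.10 in CRISPR Control (adjusted p = 0.00433), 0.69 ± 0.10 in TIMP1 KO 1 (adjusted p = 3.01e-05) and 1.44 ± 0.10 in TIMP1 KO 2 (adjusted p = 8.42e-10). TIMP1 KO 1 exceeded CRISPR Control by 0.31 ± 0.10 (adjusted p = 0.0121), a call that was lost without TIMP1 KO 1 replicate 2 (adjusted p = 0.0872).

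Because the rRNAs did not move in parallel, their ratio differed between lines. There were 8.87 ± 1.38 reads of MT-RNR2 per read of MT-RNR1 in WT, 5.36 ± 0.0731 in CRISPR Control, 10.9 ± 0.298 in TIMP1 KO 1 and 7.61 ± 0.183 in TIMP1 KO 2. The WT libraries spread from 7.41 to 10.2 and included the range of TIMP1 KO 2. Relative to the mRNAs, rRNA was at 5.94 ± 0.345 reads per 100 mitochondrial mRNA reads in WT and 6.0 ± 0.473 in CRISPR Control, against 9.44 ± 0.518 in TIMP1 KO 1 and 10.4 ± 0.644 in TIMP1 KO 2. The competent libraries ran from 5.49 to 6.42 and the deficient ones from 8.87 to 11.02. This split rested on MT-RNR2, since MT-RNR1 alone gave 0.609 in WT, 0.942 in CRISPR Control, 0.795 in TIMP1 KO 1 and 1.20 in TIMP1 KO 2, with CRISPR Control above TIMP1 KO 1. Per kilobase of gene, MT-RNR2 held 6937 normalised counts in WT, less than the 31930 of MT-CO1, and MT-RNR1 held 1295. Whether the libraries were depleted of rRNA or selected for poly(A) is not given in the sources used here.

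Read counts of the light-strand genes tested rose in both TIMP1-deficient lines, and more in TIMP1 KO 2. A count at a tRNA gene does not tell the mature tRNA from longer RNA that still spans the gene. The strand setting of the counting is not stated, so at MT-ND6, at these tRNA genes and at all other mitochondrial genes RNA of the opposite strand cannot be told apart from the gene's own transcripts. All 5 that were tested were higher in TIMP1 KO 1 than in WT, with log2 fold changes of 0.47 to 1.16, and all 5 were higher in TIMP1 KO 2, with 1.22 to 2.27. Of all genes tested, 18% were higher in TIMP1 KO 1 and 27.1% in TIMP1 KO 2. In each of the 2 comparisons the smallest of these 5 changes was above that of every heavy-strand mRNA, which ran from -0.06 to 0.45 in TIMP1 KO 1 and from -0.09 to 1.02 in TIMP1 KO 2. The 2 comparisons share the WT libraries. Against CRISPR Control this order did not hold. In TIMP1 KO 1, MT-TY (0.13) and MT-ND6 (0.49) were then below MT-ATP6 (0.87) and MT-CO1 (0.64). In TIMP1 KO 2, MT-TY (1.15) was below MT-ND5 (1.27).

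MT-ND6, a complex I subunit, was at 2730, 2902 and 2729 normalised counts in WT and at 2296, 3195 and 2826 in CRISPR Control. In TIMP1 KO 1 it was at 4179, 4064 and 3398, and in TIMP1 KO 2 at 7088, 7156 and 5839. The competent lines overlapped and both deficient lines lay apart from them and from each other. The log2 fold change against WT was 0.47 ± 0.11 in TIMP1 KO 1 (adjusted p = 0.00218) and 1.26 ± 0.11 in TIMP1 KO 2 (adjusted p = 1.39e-08), with -0.02 ± 0.11 in CRISPR Control (adjusted p = 0.893). As a share of mitochondrial mRNA reads MT-ND6 made up 1.37 ± 0.0910% in WT, 1.63 ± 0.221% in CRISPR Control, 1.57 ± 0.291% in TIMP1 KO 1 and 2.41 ± 0.105% in TIMP1 KO 2. The share in TIMP1 KO 1 thus overlapped both competent lines, and that in TIMP1 KO 2 exceeded every other library.

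The WT libraries held 370, 399 and 392.4 normalised counts of MT-TC, those of CRISPR Control 466, 422 and 477, those of TIMP1 KO 1 736, 847 and 704, and those of TIMP1 KO 2 1359, 1709 and 1569. The lines followed one another without overlap. Its log2 fold change against WT was 0.97 ± 0.10 in TIMP1 KO 1 (adjusted p = 3.84e-07) and 1.99 ± 0.10 in TIMP1 KO 2 (adjusted p = 7.72e-12). In CRISPR Control it was 0.23 ± 0.10 (adjusted p = 0.0605).

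MT-TN, the neighbour of MT-TC at lower coordinates, had normalised counts of 123.4, 137 and 113 in WT and, with overlap, of 124, 173 and 113 in CRISPR Control. Its values were 281, 306 and 254 in TIMP1 KO 1 and 549, 656 and 612 in TIMP1 KO 2. This was the largest change of any mitochondrial gene tested in both KO lines against WT, 1.16 ± 0.15 (adjusted p = 5.34e-06) and 2.27 ± 0.15 (adjusted p = 2.88e-10) on the log2 scale. CRISPR Control and WT overlapped, with a difference of 0.11 ± 0.15 (adjusted p = 0.553).

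MT-TY overlapped between CRISPR Control, with 155, 147 and 137 normalised counts, and TIMP1 KO 1, with 170, 171 and 141. WT held 129, 95.5 and 103, and TIMP1 KO 2 held 350, 338 and 295. TIMP1 KO 1 and TIMP1 KO 2 exceeded WT by 0.56 ± 0.14 (adjusted p = 0.00449) and 1.58 ± 0.14 (adjusted p = 2.25e-08), and CRISPR Control did so by 0.43 ± 0.14 (adjusted p = 0.0152). The last call was lost without WT replicate 2 or WT replicate 3, where the highest adjusted p was 0.0752. Between TIMP1 KO 1 and CRISPR Control the difference was 0.13 ± 0.14 (adjusted p = 0.449).

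MT-TP behaved differently from the cluster in CRISPR Control. Its normalised counts were 248, 239 and 228 in WT and 134, 136 and 116 in CRISPR Control, against 304, 402 and 364 in TIMP1 KO 1 and 621, 608 and 451 in TIMP1 KO 2. CRISPR Control lay below WT by -0.88 ± 0.14 (adjusted p = 2.56e-05), the largest fall of a mitochondrial gene in that comparison. TIMP1 KO 1 rose by 0.57 ± 0.14 (adjusted p = 0.00296) and TIMP1 KO 2 by 1.22 ± 0.14 (adjusted p = 4.65e-07). Summed over the 4 tRNA genes, reads per 1000 mitochondrial mRNA reads were 4.24 ± 0.235 in WT, 5.13 ± 0.431 in CRISPR Control, 6.27 ± 0.545 in TIMP1 KO 1 and 11.03 ± 1.55 in TIMP1 KO 2.

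The heavy-strand tRNA gene MT-TL1 (chrM:3230-3304), between MT-RNR2 and MT-ND1, was the only other tRNA gene above the minimum. Its normalised counts were 35.3 ± 1.71 in WT, 49.4 ± 8.93 in CRISPR Control, 43.6 ± 9.71 in TIMP1 KO 1 and 53.0 ± 17.3 in TIMP1 KO 2. No difference between lines passed the test, with log2 fold changes against WT of 0.28 ± 0.26 in TIMP1 KO 1 (adjusted p = 0.433) and 0.52 ± 0.26 in TIMP1 KO 2 (adjusted p = 0.0936). The other 17 tRNA genes were under the minimum and were not tested. Each had 0 to 19 reads in a library and together they had 21 to 83, and MT-TF had none in any library. With so few reads, changes in these genes could not be assessed, and why their reads were so few was not tested.

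**Figure D2:**
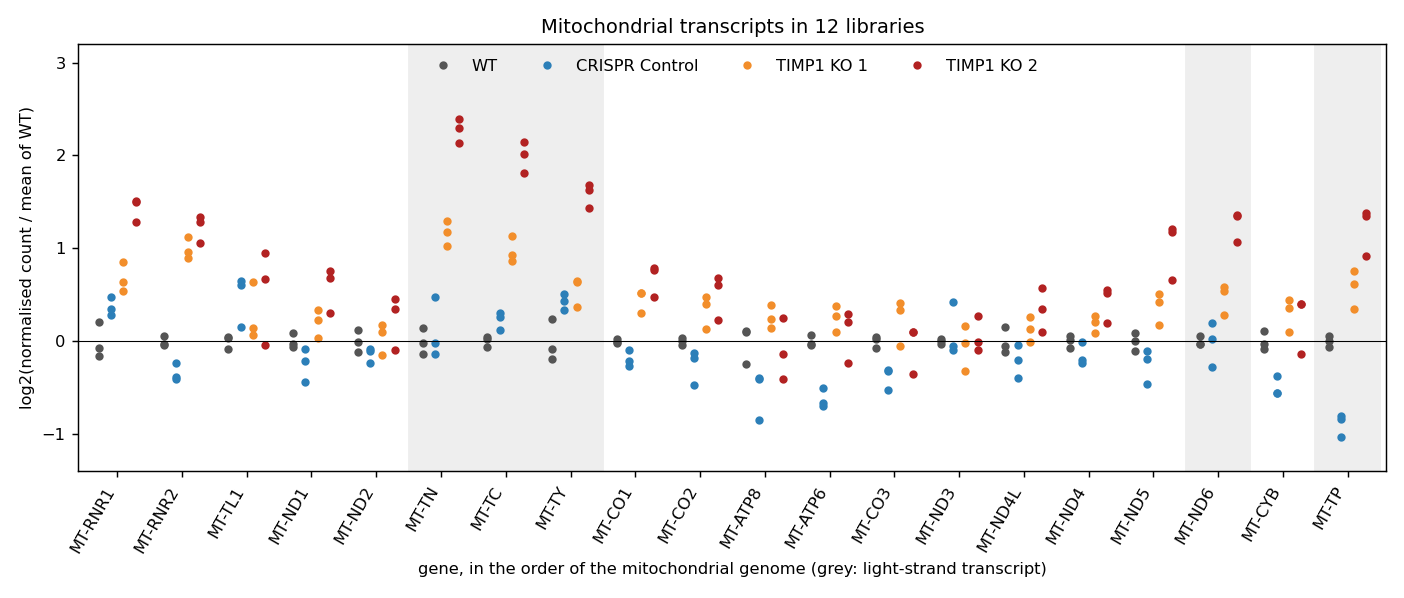
Each point is 1 of the 12 libraries, plotted as the log2 of its normalised count over the WT mean (y axis, 0 is the WT mean) for the 20 mitochondrial genes tested in genome order (x axis), with light-strand genes on grey. MT-TN, MT-TP and MT-TC spread the 4 lines furthest, MT-TP and MT-ATP6 dip in CRISPR Control, and MT-ND3 shows the lines intermingled.

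Among the heavy-strand mRNAs the complex IV subunits MT-CO1 and MT-CO2 rose in both deficient lines. MT-CO1 (chrM:5904-7445), the catalytic core of cytochrome c oxidase, was at 48700, 49039 and 49972 normalised counts in WT and at 40810, 42527 and 46132 in CRISPR Control. It was at 60665, 70557 and 70786 in TIMP1 KO 1 and at 83705, 85046 and 68348 in TIMP1 KO 2. The deficient lines overlapped each other and lay above both competent lines. TIMP1 KO 1 exceeded WT by 0.45 ± 0.09 (adjusted p = 0.000763) and TIMP1 KO 2 by 0.68 ± 0.09 (adjusted p = 4.41e-06). MT-CO2 (chrM:7586-8269), which carries the copper site that takes electrons from cytochrome c, rose from 24982 ± 694 in WT to 31714 ± 3851 in TIMP1 KO 1 (0.34 ± 0.11, adjusted p = 0.0272) and to 35771 ± 5774 in TIMP1 KO 2 (0.50 ± 0.11, adjusted p = 0.00102). The MT-CO2 call in TIMP1 KO 1 was lost without a minimum on the mean (adjusted p = 0.0636), without any 1 of the WT libraries, and without TIMP1 KO 1 replicate 2 or replicate 3 (adjusted p from 0.0531 to 0.129 over these 5 fits).

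MT-CO3 (chrM:9207-9990), the remaining mitochondrial subunit of complex IV, missed the threshold against WT in both KO lines. Its normalised counts were 25895 ± 1153 in WT, 19842 ± 1653 in CRISPR Control, 30736 ± 5006 in TIMP1 KO 1 and 25285 ± 4341 in TIMP1 KO 2, and the log2 fold changes against WT in the KO lines were 0.23 ± 0.12 (adjusted p = 0.141) and -0.05 ± 0.12 (adjusted p = 0.751). In TIMP1 KO 1 it passed as higher when only the lines compared were fitted (adjusted p = 0.0336) and without TIMP1 KO 1 replicate 1 (adjusted p = 0.0234). Reads of MT-CO3 per read of MT-CO1 were 0.526 ± 0.0217 in WT, 0.460 ± 0.0243 in CRISPR Control, 0.454 ± 0.0383 in TIMP1 KO 1 and 0.318 ± 0.0192 in TIMP1 KO 2. The TIMP1 KO 2 libraries, from 0.297 to 0.333, lay below all others. MT-CO3 was lower in CRISPR Control than in WT by -0.39 ± 0.12 (adjusted p = 0.0113).

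Of the complex I subunits, MT-ND5 (chrM:12337-14148), a proton-pumping subunit whose gene abuts that of MT-ND6 on the other strand, changed most among the heavy-strand mRNAs in TIMP1 KO 2. It was at 8697, 8087 and 9270 normalised counts in WT, at 8050, 6321 and 7599 in CRISPR Control, at 9778, 12348 and 11668 in TIMP1 KO 1 and at 19691, 20108 and 13673 in TIMP1 KO 2. The 4 lines formed 4 separate ranges, with CRISPR Control lowest and TIMP1 KO 2 highest. The highest CRISPR Control library, at 8050, lay close to the lowest of WT, at 8087. On the log2 scale CRISPR Control differed from WT by -0.25 ± 0.13, which did not pass (adjusted p = 0.101). The log2 fold change against WT was 0.37 ± 0.13 in TIMP1 KO 1 (adjusted p = 0.0277) and 1.02 ± 0.13 in TIMP1 KO 2 (adjusted p = 1.59e-06). The call in TIMP1 KO 1 was lost without a minimum on the mean (adjusted p = 0.0568) and without WT replicate 1 or 2 or TIMP1 KO 1 replicate 2 or 3 (adjusted p from 0.0670 to 0.123). MT-ND5 reads per read of MT-ND4, the preceding mRNA on the same strand, were 0.270 ± 0.00641 in WT, 0.253 ± 0.0363 in CRISPR Control, 0.306 ± 0.0183 in TIMP1 KO 1 and 0.408 ± 0.0316 in TIMP1 KO 2.

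MT-ND1, MT-ND4 and MT-ND4L, membrane subunits of the same complex, passed the test against WT in TIMP1 KO 2 but not in TIMP1 KO 1. MT-ND1 went from 9143 ± 508 normalised counts in WT to 13812 ± 2193 in TIMP1 KO 2 (0.58 ± 0.11, adjusted p = 0.000177), with 10524 ± 1090 in TIMP1 KO 1 (0.20 ± 0.11, adjusted p = 0.17). MT-ND4 went from 32146 ± 1498 to 43370 ± 5743 (0.42 ± 0.09, adjusted p = 0.000774), with 36711 ± 2241 in TIMP1 KO 1 (0.19 ± 0.09, adjusted p = 0.12). MT-ND4L, which shares a transcript and 7 bases with MT-ND4, went from 3103 ± 310 to 3963 ± 638 (0.34 ± 0.11, adjusted p = 0.0143). Without WT replicate 1, WT replicate 2 or TIMP1 KO 2 replicate 2 the last of these calls was lost. The remaining subunits did not pass against WT in either KO line: MT-ND2 was at 11506 ± 920, 11923 ± 1380 and 13711 ± 2629 in WT, TIMP1 KO 1 and TIMP1 KO 2, and MT-ND3 at 3661 ± 73.7, 3546 ± 597 and 3830 ± 532. MT-ND2 did pass as higher in TIMP1 KO 2 with equal library totals, equal nuclear totals, quantile normalization, edgeR or DESeq2 (adjusted p from 0.0190 to 0.0496), and without TIMP1 KO 2 replicate 3 (adjusted p = 0.00227). The log2 difference of MT-ND3 lay between -0.15 and 0.12 in all 7 comparisons made.

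The ATP synthase and complex III transcripts of this genome, MT-ATP6, MT-ATP8 and MT-CYB, were lower in CRISPR Control than in WT, and their adjusted p against WT missed the threshold in the KO lines. MT-ATP6 (chrM:8527-9207), the membrane subunit that lines the proton path, was at 17785, 17999 and 19224 normalised counts in WT and at 11608, 11325 and 12899 in CRISPR Control, without overlap (-0.62 ± 0.11, adjusted p = 9.65e-05). It was at 19673, 23899 and 22114 in TIMP1 KO 1 (0.25 ± 0.11 against WT, adjusted p = 0.0779) and at 22441, 21190 and 15584 in TIMP1 KO 2 (0.09 ± 0.11, adjusted p = 0.504). The TIMP1 KO 2 libraries fell on both sides of the WT range. MT-ATP8, which shares a transcript and 46 bases with MT-ATP6, was at 205 ± 27.6 in WT and 141 ± 23.4 in CRISPR Control (-0.54 ± 0.17, adjusted p = 0.0116), a call lost without WT replicate 3 or CRISPR Control replicate 3. Reads in the shared bases can belong to either gene. MT-CYB (chrM:14747-15887), the cytochrome b of complex III, was at 13390 ± 982 in WT, 9512 ± 701 in CRISPR Control (-0.49 ± 0.12, adjusted p = 0.00199), 16549 ± 1991 in TIMP1 KO 1 (0.30 ± 0.12, adjusted p = 0.0583) and 15836 ± 3187 in TIMP1 KO 2 (0.22 ± 0.12, adjusted p = 0.123). It passed as higher in TIMP1 KO 1 with edgeR (adjusted p = 0.0462), with DESeq2 (adjusted p = 0.0385) and when only the lines compared were fitted (adjusted p = 0.00303), and in TIMP1 KO 2 with equal library totals, equal nuclear totals or quantile normalization (adjusted p from 0.0278 to 0.0333). MT-ATP6 passed in TIMP1 KO 1 when only the lines compared were fitted (adjusted p = 0.00399). Without TIMP1 KO 2 replicate 3, both genes passed as higher in both KO lines.

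Counted over the 13 protein genes, 4 were higher and none lower in TIMP1 KO 1 than in WT (MT-CO1, MT-CO2, MT-ND5 and MT-ND6), against 35.5% of all genes tested that passed in either direction and 18% that were higher. In TIMP1 KO 2, 7 were higher and none lower (those 4 with MT-ND1, MT-ND4 and MT-ND4L), where 55% of all genes passed and 27.1% were higher. Over all genes that was 4330 higher and 4461 lower, which became 5235 and 3500 when library totals were made equal instead, and 5288 and 3442 with equal nuclear totals. The median log2 fold change of the 13 was 0.25 in TIMP1 KO 1 and 0.34 in TIMP1 KO 2, with medians of 0.0032 and -0.0084 over all genes. All 3 KO libraries lay above all 3 WT libraries for 7 of the 13 genes in TIMP1 KO 1 and for 6 in TIMP1 KO 2, where this held for 26.2% and 30.9% of all genes. In TIMP1 KO 1 the count of 4 fell to 2 without WT replicate 1, WT replicate 2, TIMP1 KO 1 replicate 2 or TIMP1 KO 1 replicate 3, and rose to 7 without TIMP1 KO 1 replicate 1. MT-CO1 and MT-ND6 stayed past the threshold in every one of these fits, and the calls of MT-CO2 and MT-ND5 were those lost.

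**Figure D3:**
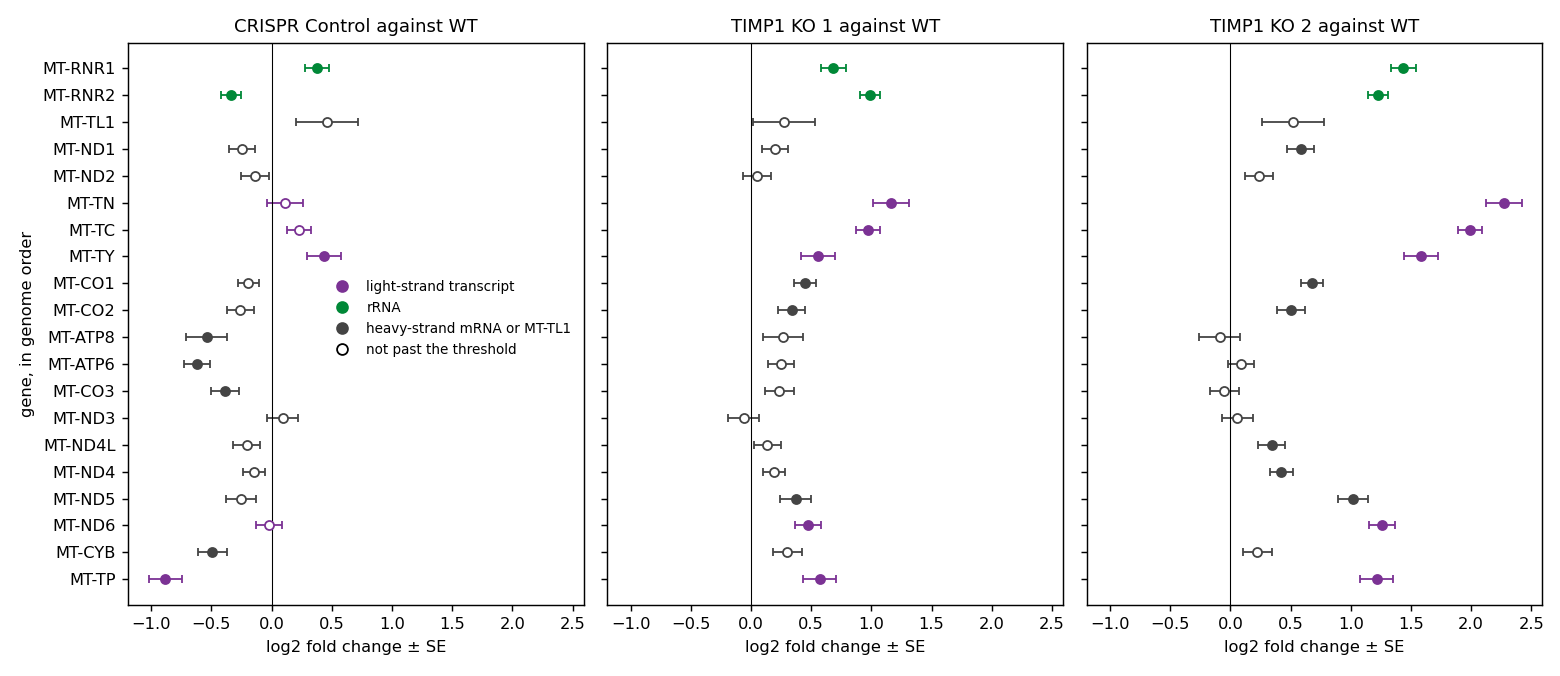
Log2 fold changes against WT with their SE (limma on 12 libraries) for the 20 mitochondrial genes tested, in genome order. Filled points passed the threshold on the adjusted p (0.05), and open points did not. The light-strand genes and the rRNAs lie to the right of every heavy-strand mRNA in both KO panels, up to 2.27 for MT-TN in TIMP1 KO 2, whereas MT-ATP8, MT-ATP6, MT-CO3 and MT-ND3 lie between -0.09 and 0.09 in TIMP1 KO 2 and MT-TP lies at -0.88 in CRISPR Control.

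CRISPR Control, which went through editing without a change of the TIMP1 protein sequence, also differed from WT. Of the 13 protein genes 4 were lower (MT-ATP6, MT-ATP8, MT-CO3 and MT-CYB) and none higher, with 53.4% of all genes passing and 26.3% lower. Without TIMP1 KO 2 replicate 3, which takes no part in the comparison but in the shared spread, 7 were lower. The median of the 13 was -0.25 against 0.013 over all genes. All CRISPR Control libraries lay under all WT libraries for 8 of the 13, as they did for 27.1% of all genes. The direction was opposite to that of the KO lines for MT-RNR2 and MT-TP, and the same as theirs for MT-RNR1 and MT-TY.

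Measured against CRISPR Control instead of WT, most mitochondrial mRNAs were higher in the KO lines. In TIMP1 KO 1, 11 of 13 were higher and none lower (63% of all genes passed, 31.7% higher and 31.3% lower), with MT-ND2 at 0.19 ± 0.11 (adjusted p = 0.169) and MT-ND3 at -0.15 ± 0.13 (adjusted p = 0.312) as the exceptions. In TIMP1 KO 2, 12 were higher (67.7% passed, 33.3% higher and 34.4% lower), with MT-ND3 as the exception. MT-ATP6 exceeded CRISPR Control by 0.87 ± 0.11 in TIMP1 KO 1 (adjusted p = 1.1e-06) and 0.71 ± 0.11 in TIMP1 KO 2 (adjusted p = 1.17e-05), and MT-CYB did so by 0.79 ± 0.12 (adjusted p = 1.23e-05) and 0.72 ± 0.12 (adjusted p = 3.36e-05). For these genes, therefore, the size of the difference depended on which competent line was the reference. The study took its fold changes between the mean of the deficient and the mean of the competent lines. It kept only genes that differed between WT and each KO line, and did not differ between WT and CRISPR Control. By the limma calls here, MT-CO1, MT-CO2, MT-ND5 and MT-ND6 alone of the 13 met that rule. Of these, only MT-ND6 met it at every alternative tried. MT-CO1 and MT-CO2 passed as lower in CRISPR Control than in WT with equal library totals, equal nuclear totals, quantile normalization or edgeR (adjusted p from 0.0187 to 0.0485). The calls of MT-CO2 and MT-ND5 in TIMP1 KO 1 were lost in the fits given above. By the contrast of means without the rule, 12 of 13 were higher and none lower (65.9% of all genes passed, 32.9% higher and 33% lower). The largest changes were those of MT-ND6 with 0.88 ± 0.08 and MT-ND5 with 0.82 ± 0.09. For 5 of the 13 all deficient libraries lay above all competent ones, against 12.3% of all genes.

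The KO lines also differed from each other. Of the 13 mRNAs, MT-ND6 (0.79 ± 0.11, adjusted p = 1.31e-05), MT-ND5 (0.65 ± 0.13, adjusted p = 0.00046) and MT-ND1 (0.38 ± 0.11, adjusted p = 0.00919) were higher in TIMP1 KO 2 than in TIMP1 KO 1 and none was lower, where 38.2% of all genes passed, 18.1% higher and 20.1% lower. These were 2890 and 3210 genes, and became 3890 and 2046 with equal library totals and 3922 and 2026 with equal nuclear totals. All 4 light-strand tRNA genes tested were higher too, MT-TN by 1.11 ± 0.15 (adjusted p = 8.97e-06), MT-TY by 1.02 ± 0.14 (adjusted p = 1.32e-05), MT-TC by 1.02 ± 0.10 (adjusted p = 2.2e-07) and MT-TP by 0.65 ± 0.14 (adjusted p = 0.00097). MT-RNR1 was higher by 0.75 ± 0.10 (adjusted p = 9.65e-06) and MT-RNR2 by 0.24 ± 0.08 (adjusted p = 0.0314). The count of 3 mRNAs became 8 without TIMP1 KO 2 replicate 3, and 5 without any 1 library of CRISPR Control or without TIMP1 KO 2 replicate 1, in which last case 2 of the 5 were lower. TIMP1 KO 2 replicate 3 had the lowest mitochondrial share of its line, and the calls of MT-ND5, MT-ND6 and the 4 tRNA genes did not depend on it.

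Expressed as shares of the mitochondrial mRNA reads, the make-up of the pool differed between lines. All deficient libraries lay above all competent ones for MT-CO1, below them for MT-ND2 and MT-ND3, and apart from them for no other mRNA. MT-ND2 made up 5.66 ± 0.347% in WT, 6.17 ± 0.238% in CRISPR Control, 4.77 ± 0.0740% in TIMP1 KO 1 and 4.89 ± 0.243% in TIMP1 KO 2. For MT-ND3 the shares were 1.80 ± 0.0261%, 2.34 ± 0.496%, 1.41 ± 0.104% and 1.38 ± 0.145% in that order. MT-CO1 was the most frequent mRNA, with 24.3 ± 0.598% of mRNA reads in WT, 25.5 ± 0.409% in CRISPR Control, 27.0 ± 0.714% in TIMP1 KO 1 and 28.4 ± 1.03% in TIMP1 KO 2. MT-ATP6 made up 9.03 ± 0.192% in WT and 8.77 ± 0.182% in TIMP1 KO 1, and 7.05 ± 0.350% in CRISPR Control and 7.05 ± 0.392% in TIMP1 KO 2. MT-CO3 made up 12.8 ± 0.296% in WT, 11.7 ± 0.427% in CRISPR Control, 12.3 ± 0.815% in TIMP1 KO 1 and 9.04 ± 0.256% in TIMP1 KO 2. For MT-ND5 the shares were 4.27 ± 0.151%, 4.34 ± 0.692%, 4.51 ± 0.0818% and 6.35 ± 0.370% in the same order. Per kilobase, and over all 12 libraries, MT-CO2 (41464 normalised counts per kilobase) and MT-CO1 (38710) were followed by MT-CO3 (32448), MT-ATP6 (26400) and MT-ND4 (25633). MT-CYB, MT-ND2, MT-ND4L, MT-ND3 and MT-ND1 lay between 10780 and 12114, MT-ND6 at 7683, MT-ND5 at 6222 and MT-ATP8 at 950. MT-ATP8 shares a transcript with MT-ATP6, and MT-ND4L (11082) with MT-ND4, yet their values per kilobase were far apart. This order need not be that of RNA abundance, and the cause of these gaps was not tested. MT-ND6 and MT-ND5 stood at 5309 and 4793 per kilobase in WT and at 12751 and 9837 in TIMP1 KO 2, beside 11069 to 14448 for MT-ND1, MT-ND2, MT-ND3 and MT-ND4L in that line.

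Few of the nuclear genes that serve this genome were higher than WT in the KO lines, and in TIMP1 KO 1 most of them did not pass the test. Over 9 lists with 244 different genes tested, 4 genes were higher and 52 lower in TIMP1 KO 1 than in WT (18% and 17.5% of all genes), and 10 were higher and 105 lower in TIMP1 KO 2 (27.1% and 27.9%). In CRISPR Control 70 were higher and 32 lower (27.2% and 26.3%). The medians of the 244 were -0.11, -0.17 and 0.10. The lists were drawn up with earlier results of these data known, and their counts are descriptions. The shares of all genes given here are the background for each list below, and some list counts lie near or under them. In TIMP1 KO 2, for example, 7 of 35 complex I genes were lower, a smaller part than over all genes. There 40 of 80 mitochondrial ribosomal protein genes were lower, a larger part.

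**Figure D4:**
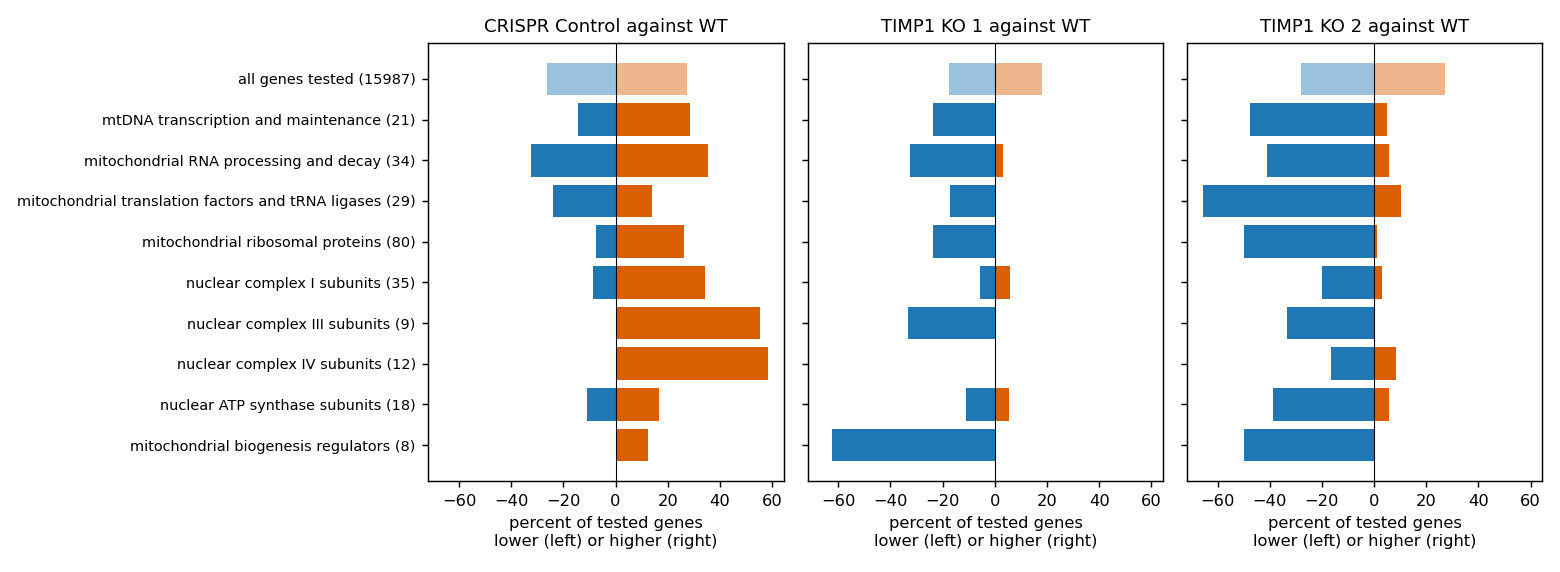
Percent of the tested genes of each list that were higher (bars to the right) or lower (bars to the left) than WT by the limma test, with all 15987 genes at the top and the number tested in brackets. In both KO panels the bars of every list but complex IV in TIMP1 KO 1, which has none, point mainly or equally to the left, and in CRISPR Control those of complexes III and IV and of the biogenesis regulators point to the right alone.

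Of 21 genes for transcription and maintenance of mitochondrial DNA, none was higher and 5 lower in TIMP1 KO 1, 1 was higher and 10 lower in TIMP1 KO 2, and 6 were higher and 3 lower in CRISPR Control. TFAM, which packages mitochondrial DNA and starts its transcription, was at 1896, 2809 and 2306 normalised counts in WT, 3172, 3722 and 2719 in CRISPR Control, 2233, 2040 and 2011 in TIMP1 KO 1 and 1939, 1595 and 1585 in TIMP1 KO 2. It was lower than WT in TIMP1 KO 2 (-0.44, adjusted p = 0.0062), although WT replicate 1 lay within the TIMP1 KO 2 range, and higher in CRISPR Control (0.46, adjusted p = 0.00472). In TIMP1 KO 1 its value was -0.14 (adjusted p = 0.416). POLRMT, the RNA polymerase, was lower in TIMP1 KO 2 (-0.26, adjusted p = 0.0325), and TWNK, the DNA helicase, was lower in TIMP1 KO 1 (-0.23, adjusted p = 0.0297) and TIMP1 KO 2 (-0.53, adjusted p = 1.25e-05). The elongation factor TEFM stood at -0.18 in both (adjusted p = 0.213 and 0.17). EXOG, a mitochondrial nuclease, had the largest change of the list in TIMP1 KO 1 (-0.50, adjusted p = 0.00119). MTERF3, a repressor of mitochondrial transcription, had it in TIMP1 KO 2 (-0.72, adjusted p = 6.26e-07) and CRISPR Control (0.65, adjusted p = 2.7e-06).

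Of 34 genes for processing and decay of mitochondrial RNA, 1 was higher and 11 lower in TIMP1 KO 1, 2 were higher and 14 lower in TIMP1 KO 2, and 12 were higher and 11 lower in CRISPR Control. MRM3, which methylates the large rRNA, fell from 655 ± 60.6 normalised counts in WT to 365 ± 28.1 in TIMP1 KO 1 (-0.84, adjusted p = 4.84e-06) and 311 ± 24.1 in TIMP1 KO 2 (-1.07, adjusted p = 9.22e-08). LRPPRC, which stabilises mitochondrial mRNAs with SLIRP, was lower in TIMP1 KO 2 (-0.27, adjusted p = 0.0012) and higher in CRISPR Control (0.34, adjusted p = 0.000143). SLIRP was at -0.16 and -0.09 in the KO lines (adjusted p = 0.355 and 0.581). PNPT1, the nuclease of the RNA degradosome, was lower in TIMP1 KO 1 (-0.23, adjusted p = 0.0301) and at 0.12 in TIMP1 KO 2 (adjusted p = 0.231), and the KO lines differed by 0.34 (adjusted p = 0.00196). Its partner helicase SUPV3L1 was lower in TIMP1 KO 1 (-0.21, adjusted p = 0.0271) and at -0.11 in TIMP1 KO 2 (adjusted p = 0.197). MTPAP, the poly(A) polymerase, was 1 of the few that rose in TIMP1 KO 2 (0.32, adjusted p = 0.00913). In CRISPR Control the largest change was that of KIAA0391, the nuclease subunit of mitochondrial RNase P (-0.98, adjusted p = 3.81e-05).

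Many genes of the translation machinery were lower in TIMP1 KO 2. Of 80 mitochondrial ribosomal protein genes tested, none was higher and 19 lower in TIMP1 KO 1, 1 was higher and 40 lower in TIMP1 KO 2, and 21 were higher and 6 lower in CRISPR Control. MRPL11 was lower in TIMP1 KO 2 (-0.74, adjusted p = 5.48e-06), MRPS5 in TIMP1 KO 1 (-0.64, adjusted p = 0.00172) and MRPS6 in CRISPR Control (-0.60, adjusted p = 1.39e-05). These proteins assemble with the rRNAs, which were higher than WT in both KO lines, whereas in CRISPR Control MT-RNR1 was higher and MT-RNR2 lower. Of 29 genes for translation factors and tRNA ligases, none was higher and 5 lower in TIMP1 KO 1, 3 were higher and 19 lower in TIMP1 KO 2, and 4 were higher and 7 lower in CRISPR Control. The elongation factor TUFM (-0.64 in TIMP1 KO 2, adjusted p = 2.96e-06), the methionine tRNA ligase MARS2 (-0.48 in TIMP1 KO 1, adjusted p = 0.000877) and the threonine tRNA ligase TARS2 (-0.71 in CRISPR Control, adjusted p = 1.24e-07) changed most.

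Nuclear subunits of the respiratory complexes were counted by complex. Of 35 complex I genes 2 were higher and 2 lower in TIMP1 KO 1, 1 was higher and 7 lower in TIMP1 KO 2, and 12 were higher and 3 lower in CRISPR Control. NDUFB9 fell in TIMP1 KO 2 (-0.59, adjusted p = 8.16e-05), and NDUFC2 and NDUFS4 rose in TIMP1 KO 1 (0.38, adjusted p = 0.0452) and CRISPR Control (0.86, adjusted p = 1.39e-06) respectively. Of 9 complex III genes 3 were lower in each KO line and 5 higher in CRISPR Control, and CYC1, cytochrome c1, fell from 10473 ± 955 in WT to 7592 ± 347 in TIMP1 KO 1 (-0.46, adjusted p = 0.000768) and 5908 ± 672 in TIMP1 KO 2 (-0.83, adjusted p = 5.1e-07). UQCRB was the complex III gene that rose most in CRISPR Control (0.77, adjusted p = 1.62e-05). Of 12 complex IV genes none passed in TIMP1 KO 1, 1 was higher and 2 lower in TIMP1 KO 2 (COX5A at -0.46, adjusted p = 0.000165), and 7 were higher in CRISPR Control (COX7A2L at 0.75, adjusted p = 2.65e-06). Of 18 ATP synthase genes 1 was higher and 2 lower in TIMP1 KO 1 (ATP5MC3 at -0.40, adjusted p = 0.00159), 1 was higher and 7 lower in TIMP1 KO 2 (ATP5MC1 at -0.64, adjusted p = 6.57e-06), and 3 were higher and 2 lower in CRISPR Control (ATP5MD at 0.63, adjusted p = 0.000131).

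Of 8 tested regulators of mitochondrial biogenesis, none was higher and 5 lower in TIMP1 KO 1, none was higher and 4 lower in TIMP1 KO 2, and 1 was higher in CRISPR Control. NRF1, a transcription factor of nuclear genes for mitochondrial proteins, had 827 ± 10.96 normalised counts on average in WT, 736 ± 36.5 in CRISPR Control, 656 ± 56.7 in TIMP1 KO 1 and 405 ± 35.8 in TIMP1 KO 2, with log2 fold changes against WT of -0.34 (adjusted p = 0.00816) and -1.03 (adjusted p = 2.76e-08) in the KO lines. The coactivator gene PPARGC1B was lower in TIMP1 KO 1 (-0.71, adjusted p = 0.00771) and at -0.20 in TIMP1 KO 2 (adjusted p = 0.406), and PPARGC1A was under the minimum, with a mean of 5.57.

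The nuclear genome holds copies of mitochondrial genes, and reads of near-identical copies can be placed at either site. The handling of such reads is not stated. The 392 copies listed together came to 0.235% to 0.448% of the mitochondrial signal, and 6 reached the minimum. MTATP6P1 (chr1:633696-634376) was at 616 ± 16.8 normalised counts in WT, 393 ± 84.5 in CRISPR Control (-0.67, adjusted p = 0.00109), 649 ± 69.1 in TIMP1 KO 1 and 544 ± 120 in TIMP1 KO 2, the last 2 without a call against WT, and MT-ATP6 too was lower in CRISPR Control. MTCO1P12 (chr1:631074-632616) was higher in TIMP1 KO 2 (0.57, adjusted p = 0.00593), as was MT-CO1. MTND2P28 averaged 30.7 over the libraries, and no other copy passed against WT in any line. What part such reads have in the values of MT-ATP6, MT-CO1 and their neighbours was not tested.

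Of 10 genes taken as signs of library composition or RNA quality, 3 reached the minimum. NEAT1, a nuclear non-coding RNA, was at 1192 ± 32.5 in WT, 1976 ± 317 in CRISPR Control, 1036 ± 8.73 in TIMP1 KO 1 and 2160 ± 127 in TIMP1 KO 2, so it was higher in CRISPR Control (0.72, adjusted p = 4.4e-06) and TIMP1 KO 2 (0.86, adjusted p = 4.13e-07) and at -0.20 in TIMP1 KO 1 (adjusted p = 0.109). RN7SL1, a short RNA without a poly(A) tail, was lower in CRISPR Control (-0.83, adjusted p = 0.00164) and TIMP1 KO 2 (-0.56, adjusted p = 0.0223), with -0.41 in TIMP1 KO 1 (adjusted p = 0.113). MALAT1 was at 23.0 ± 10.6, 50.2 ± 13.4, 24.8 ± 5.41 and 34.5 ± 6.20 in the order above, and passed against WT in CRISPR Control alone, as higher. All 3 of these genes thus differed between CRISPR Control and WT. Against WT, NEAT1 was thus higher in TIMP1 KO 2 and CRISPR Control. RN7SL1 stood below WT in CRISPR Control and in both KO lines, with a call in CRISPR Control and TIMP1 KO 2. The part of library composition in the mitochondrial values was not tested.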

How the data were processed

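Bulk RNA sequencing of 12 MIA PaCa-2 libraries was analysed, 3 for each of 4 lines, grouped and numbered by the sample titles. According to the study's methods, read pairs were trimmed with Cutadapt, aligned by STAR (GRCh38) and assigned to genes with featureCounts, and the authors then scaled every library by its DESeq2 size factor. What was deposited is thus a signal, read counts on a common scale. A change shared by most genes would be removed by such scaling. The annotation release, the strand setting, the treatment of reads with several placements and the removal of rRNA are not given in the sources used here. Quality reports (FastQC, MultiQC) are named in the submitters' processing notes.

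The values of a library were whole multiples of 1 step, and 100% of positive values gave whole reads within 0.01 reads. These recovered reads gave the depth (26908701 to 36093563 reads in genes) and the shares and ratios. Counts of 0 allow up to 3 reads, and intervals and limits of this kind cover counting error only. The table's 4 columns of line means were not used, and 1 blank line was left out. Positions are from GENCODE genes on GRCh38, which need not be the authors' release, and all 37 member symbols were equal in the file and the gene names table.

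The test was limma (version 3.58.1, R 4.3.3, eBayes with trend) on log2(normalised count + 1) of the 15987 genes with a mean of at least 10, with 4 line means fitted to all 12 libraries. Two-sided p-values received Benjamini-Hochberg adjustment over all genes tested, with a threshold of 0.05. Fold changes on this scale understate the change of low genes. P-values measure the spread between libraries of a line, and every comparison with WT shares the same 3 WT libraries. Replicates differed by more than counting error, so none was taken as a repeat deposit. The script was tested on simulated data.

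The members and all gene lists were chosen with earlier results of these data known, so that the p-values describe the spread and are no independent support. Every MT- gene is accounted for. Named with values are the protein and rRNA genes, tRNA genes with a mean of at least 10, TIMP1, 11 fixed regulators (TFAM to PPARGC1B), the 3 most abundant nuclear copies, and from each list the member past the threshold with the largest change against WT in each line (mean of at least 100). Markers of the cell line and of foreign cell types were also fixed. MALAT1 was named after its values were seen. Alternatives tried were equal library totals, equal nuclear totals, quantile normalization, a pseudocount of 10, a minimum mean of 50, no minimum, only the lines compared, a replicate block, edgeR 4.0.16 and DESeq2 1.42.0 on the recovered reads, other members of the shares and ratios, and leaving out each library.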

Additional observations from a re-analysis of the deposited data

Results flagged for a closer look

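For 9 mitochondrial genes the change against WT differed between the TIMP1 KO lines by the limma test of the difference itself, which was larger in TIMP1 KO 2 in each case. On the log2 scale the differences were 1.11 for MT-TN, 1.02 for MT-TY, 1.02 for MT-TC and 0.65 for MT-TP among the tRNA genes, 0.79 for MT-ND6, 0.65 for MT-ND5 and 0.38 for MT-ND1 among the mRNAs, and 0.75 for MT-RNR1 and 0.24 for MT-RNR2. WT cancels in this difference, which equals TIMP1 KO 2 against TIMP1 KO 1. All 5 light-strand genes tested were among the 9. The call of MT-RNR2 was lost without a minimum on the mean (adjusted p = 0.0744), and without TIMP1 KO 1 replicate 1, TIMP1 KO 1 replicate 3, TIMP1 KO 2 replicate 1 or TIMP1 KO 2 replicate 2, where the highest adjusted p was 0.143, and that of MT-ND1 without TIMP1 KO 1 replicate 1 or TIMP1 KO 2 replicate 2. With 3 libraries a line, single libraries that stand apart were not tested.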

How the results depend on the processing

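Over all alternatives the 20 mitochondrial genes gave 3073 values in the 7 comparisons. Of these, 2951 kept their side of the threshold, 44 lost a call, 78 gained one and 0 calls reversed. With TIMP1 and the named nuclear genes included there were 8617 values, of which 8292 kept their side, 175 lost a call and 150 gained one. The calls of single nuclear genes are given above at the main setting only, and those close to the threshold are the less certain. The count of protein genes past the threshold in TIMP1 KO 1 against WT (4) became 2 without a minimum on the mean and 9 when only WT and TIMP1 KO 1 were fitted, and ran from 2 to 7 with a library left out. In CRISPR Control against WT (4) it was 7 with equal library totals, with equal nuclear totals and with edgeR, and 3 to 7 with a library left out. Between TIMP1 KO 2 and TIMP1 KO 1 (3) it was 6 with equal library totals and with equal nuclear totals, 8 with quantile normalization (7 higher and 1 lower), 5 with a minimum mean of 50, 5 with edgeR and 5 with DESeq2, and 2 to 8 with a library left out. The cause was not tested. The other counts ran from 6 to 10 (TIMP1 KO 2 against WT), 10 to 11 (TIMP1 KO 1 against CRISPR Control), 10 to 12 (TIMP1 KO 2 against CRISPR Control) and 11 to 12 (deficient against competent lines).

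With a library left out, the mitochondrial share ran from 0.673% to 0.693% in WT, 0.556% to 0.577% in CRISPR Control, 0.834% to 0.917% in TIMP1 KO 1 and 1.00% to 1.15% in TIMP1 KO 2. Without MT-CO1 the shares were 0.530%, 0.430%, 0.656% and 0.787% in the same order. The rRNA reads per 100 mRNA reads ran from 5.77 to 6.11, 5.79 to 6.25, 9.21 to 9.72 and 10.0 to 10.7, and MT-RNR1 alone gave 0.609, 0.942, 0.795 and 1.20, with CRISPR Control above TIMP1 KO 1. The share of MT-ND6 in mRNA reads ran from 1.32% to 1.41%, 1.51% to 1.72%, 1.41% to 1.70% and 2.35% to 2.45%, and was 4.09%, 4.53%, 5.06% and 6.97% of the heavy-strand complex I mRNAs.

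Same-numbered libraries correlated between -0.129 and 0.160 in their deviations from the line means, so the numbers were not taken as pairs. With a replicate block the counts were 4 (TIMP1 KO 1 against WT), 7 (TIMP1 KO 2 against WT), 4 (CRISPR Control against WT), 11 and 12 (TIMP1 KO 1 and TIMP1 KO 2 against CRISPR Control), 3 (between KO lines) and 12 (deficient against competent lines). Equal nuclear totals moved the median of all genes furthest in TIMP1 KO 2 against CRISPR Control, from -0.0084 to 0.11. The 17 tRNA genes are limited by read counts of at most 19 a library, and the rest by 3 libraries a line.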
